A study of Mus musculus with 4 samples.

Results

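Cadherins are membrane proteins whose extracellular repeats bind calcium and hold neighbouring cells together. The genes described here are those whose symbol in the deposited tables is Cdh, Pcdh or Pcdhb followed by a number, or is Fat1 to Fat4, Dchs1 or Celsr1 to Celsr3, with Cdh5, the cadherin of blood vessels, left out. They were chosen by symbol, with earlier results of these data known, and they are 64 of the 21832 genes kept from 23021 deposited gene lines. By structure they fall into 5 type I cadherins, 12 type II cadherins, 6 other Cdh genes, 11 protocadherins that lie outside the protocadherin clusters, 22 beta protocadherins that lie side by side in a single cluster, and 8 large cadherins of the Fat, Dachsous and Celsr kind. Dchs2 was not analysed here.

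Type I and type II cadherins are called classical because their tails bind catenins, which tie the adherens junction to actin. In the retina such junctions lie along the outer limiting membrane, and different classical cadherins mark different neurons. Protocadherins mediate weaker, more selective contacts between neurons, while Fat, Dachsous and Celsr proteins carry signals of planar polarity and growth between neighbours.

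The libraries came from mouse retina at postnatal day 1 (P1) and postnatal day 4 (P4), and mRNA levels were measured by RNA-seq. The mice carried EGFP, in a destabilized form, under the promoter of Hes1, and the labels give their strain as FVB/N, while the methods of the study name ICR mice beside the transgenic line. EGFP-positive cells (pHes1_EPC, labelled Hes1P) and EGFP-negative cells (pHes1_ENC, labelled Hes1N) were separated with a cell sorter and received no treatment. The comparison addressed which genes set the glial lineage apart from the other retinal cells, but Hes1 is also active in progenitor cells, so the reporter does not mark glia alone at these ages. The number of retinas behind a library is not given in the sources used here.

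Each of the 4 groups was 1 library, so that no difference below could be set against the spread between animals, and no test between groups was made. The values were FPKM, the number of sequenced fragments of a gene scaled by exon length and by the size of the library, with a 95% interval given by the quantification program for each gene in each library. The intervals cover the uncertainty of that estimate within a library and nothing else. A gene was called higher or lower when log2(FPKM + 1) differed by more than 1, and such a difference understates the change of a gene with a low FPKM. Ratios of FPKM are given with a range, which sets the opposite ends of the 2 intervals against each other. In bulk samples, fewer cells of a type and less RNA per cell cannot be told apart. Read depth per library is unknown from FPKM.

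The sort was checked by Hes1 and Hes5, a pair of Notch target genes. Hes1 had an FPKM of 16.6 in pHes1_ENC and 105 in pHes1_EPC at P1, and 3.59 and 93.5 at P4. Hes5 had an FPKM of 64.8, 282, 16.3 and 324 in the same order. Both were thus higher in the EGFP-positive library at each age. All 11 Müller and progenitor markers were called higher in P4 pHes1_EPC than in P4 pHes1_ENC (9.85% of all genes). At P1 10 of the 11 were (6.1% of all genes), and Pax6 had a log2 difference of -0.95.

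Of the 64 genes, 48 reached an FPKM of 1 in at least 1 library and 20 reached 5. The remaining 16 stayed below 1 in every library, among them Cdh1 (E-cadherin), Cdh6, Cdh7, Cdh9 and Cdh23, and Cdh16 and Fat2 were listed at 0 in all 4. The number of genes at an FPKM of 1 or more was 44 in pHes1_ENC and 36 in pHes1_EPC at P1, and 37 and 43 at P4. For the 20 genes that reached 5, the deposited interval reached from 2.08% to 24.3% of the FPKM to either side.

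**Figure D1:**
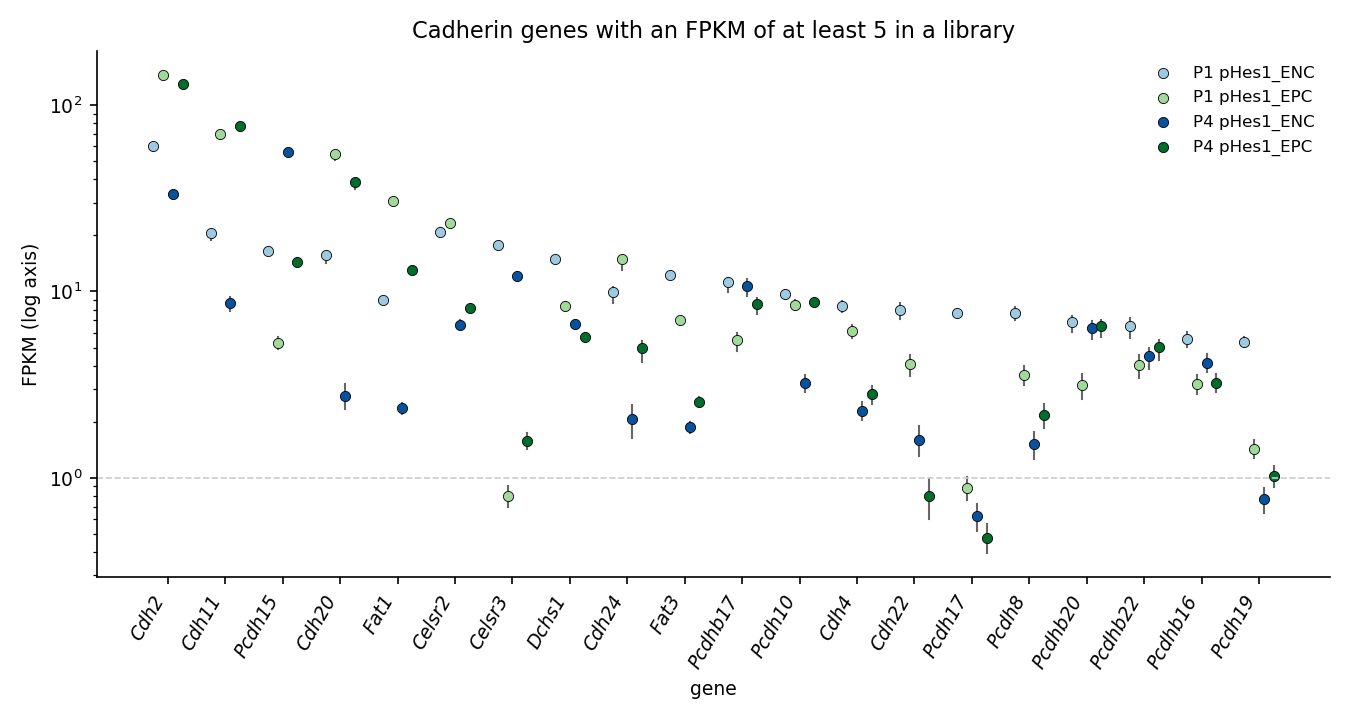
FPKM (log axis) of the 20 genes that reached an FPKM of 5 in a library, ordered by their highest value, with 1 point per library and the deposited 95% interval as a vertical line. Cdh2 leads in every library but P4 pHes1_ENC, where Pcdh15 stands at 55.8, and the green EGFP-positive points lie above the blue EGFP-negative points for Cdh2, Cdh11, Cdh20 and Fat1 and below them for Pcdh15 and Celsr3.

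Promoter sequences are shown first for 3 of the genes that differed between the fractions at both ages, Cdh20 on the higher side and Celsr3 and Pcdh15 on the lower side. Each run is the 250 bases before the start of the RefSeq transcript (build GRCm38.p6), read on the plus strand. In the NCBI37/mm9 genome of the deposited files, each matched at 1 place on its own chromosome. Other chromosomes were not searched. Capitals mark a match on either strand to CACNAG, the N-box, a motif bound by Hes proteins. The same window of Fat1, a gene called higher in pHes1_EPC at both ages, is not printed and held no N-box. The Cdh20 window lies at chr1:106664847-106665096 in mm9, in the flank of the gene, and ends 300 bases before the deposited gene line begins. The Celsr3 window lies at chr9:108728126-108728375 and ends 276 bases before its gene line. The Pcdh15 window lies at chr10:73284365-73284614 and adjoins its gene line.
Cdh20: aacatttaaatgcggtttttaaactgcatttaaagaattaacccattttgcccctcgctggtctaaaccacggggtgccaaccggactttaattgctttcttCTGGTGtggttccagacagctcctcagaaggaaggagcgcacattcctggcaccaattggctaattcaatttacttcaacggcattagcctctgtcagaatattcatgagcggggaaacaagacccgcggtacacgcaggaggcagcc
Celsr3: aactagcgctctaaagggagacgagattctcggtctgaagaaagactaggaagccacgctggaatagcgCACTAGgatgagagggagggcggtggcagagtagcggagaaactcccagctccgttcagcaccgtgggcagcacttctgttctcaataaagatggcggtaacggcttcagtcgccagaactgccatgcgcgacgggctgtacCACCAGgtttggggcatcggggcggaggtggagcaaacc
Pcdh15: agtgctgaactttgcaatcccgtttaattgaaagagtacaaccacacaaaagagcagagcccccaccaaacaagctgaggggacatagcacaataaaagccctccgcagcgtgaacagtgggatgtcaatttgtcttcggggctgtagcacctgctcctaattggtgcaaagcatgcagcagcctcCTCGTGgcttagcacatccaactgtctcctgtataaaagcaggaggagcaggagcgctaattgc
Counted back from the transcript start, the match lies at -148 to -143 in Cdh20, at -181 to -176 and -39 to -34 in Celsr3, and at -64 to -59 in Pcdh15. Windows were searched for 28 of the 64 genes described here, so the counts do not cover the whole family. The N-box occurred in 10 of the 28, and in 36.7% of all 32851 windows of that length. CACGCG, another site of Hes-type repressors, occurred in 2 of the 28 (Pcdh10 and Pcdh18) against 7.62% of all windows, and it cannot match at the same position as the N-box. TGGGAA, the core of the RBPJ site of Notch signalling, occurred in 5 of the 28 against 21.6%. Fat1 was among the 5, with matches at -236 to -231 and -135 to -130. TAATCC, a site of the photoreceptor factors Crx and Otx2, occurred in 2 of the 28 against 6.25%. A match says only that the letters are present.

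At P1, 5 of the 64 genes were called higher in pHes1_EPC (7.81%, against 6.1% of all genes) and 6 were called lower (9.38%, against 6.79%). With libraries rescaled to the same total, 10 were called lower at P1 (15.6%, against 7.47%). The median log2 difference was -0.52 for the 64 genes and 0 for all genes, and 48 of the 64 lay below 0. At P4, 9 were called higher (14.1%, against 9.85% of all genes) and 3 lower (4.69%, against 5.42%), with a median of 0.01. Cdh2, Cdh11, Cdh20, Celsr1 and Fat1 were called higher at both ages, as were 4.61% of all genes, and Cdh13, Celsr3 and Pcdh15 were called lower at both ages, as were 3.24%. Over the 12180 genes with a mean FPKM of at least 1, the share called higher at P4 was 16.9%, against 7 of the 44 genes of the family in that set (15.9%). At P4 9.41% of them were called lower, against 3 of the 44. The counts at P4 leaned on the scale of the libraries, since the median of those 12180 genes was itself 0.16, and with libraries scaled in 3 other ways (to the same total, by median of ratios, or by quantile normalization) 6 or 7 genes were called higher and 4 lower. Of all genes called at P4, 64.5% were called higher as deposited and 47.9% to 53.1% under the other scalings.

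**Figure D2:**
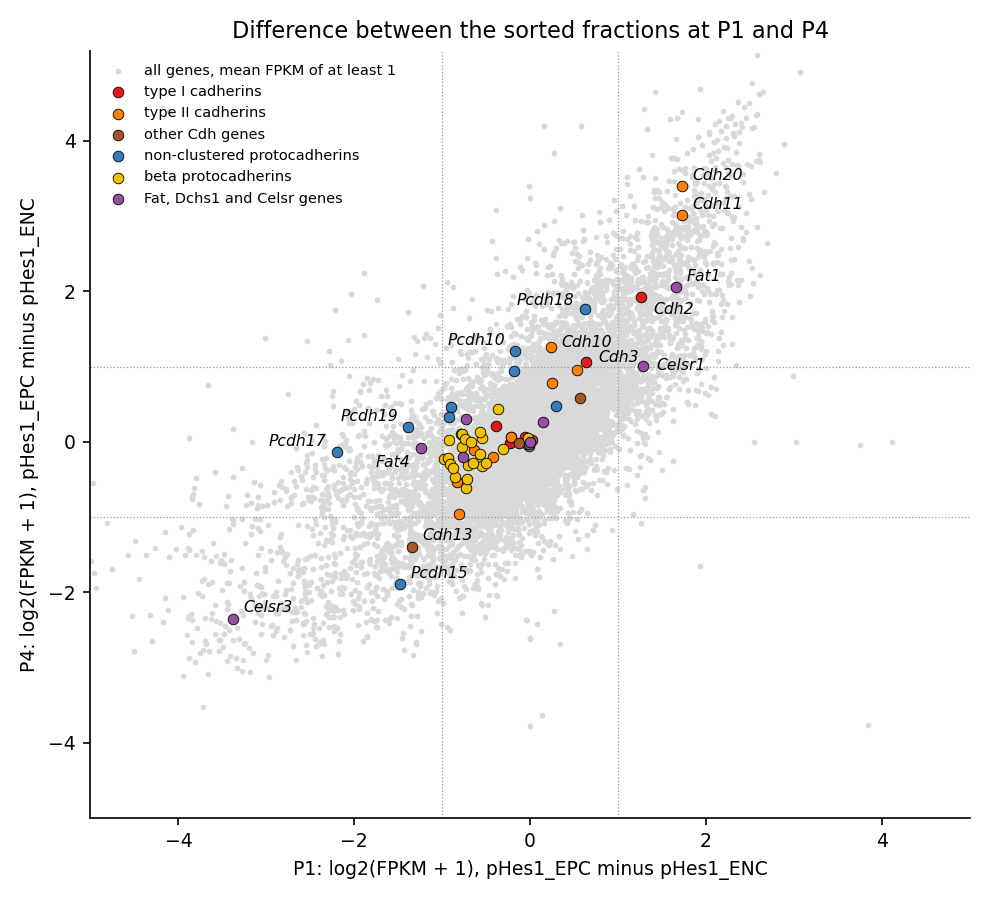
Difference in log2(FPKM + 1), pHes1_EPC minus pHes1_ENC, at P1 (horizontal) and at P4 (vertical). Coloured points are the 64 genes by structural group, grey points are 12166 genes with a mean FPKM of at least 1 (14 more lie outside the axes), and dotted lines mark 1 and -1, the threshold of a call. Cdh20, Cdh11, Fat1, Cdh2 and Celsr1 lie at the upper right, Celsr3, Pcdh15 and Cdh13 at the lower left, and the yellow beta protocadherins all lie left of 0 at P1.

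The deposited intervals gave a finer view of the 44 genes of the family with a mean FPKM of at least 1. At P1 the interval in pHes1_EPC lay above that in pHes1_ENC for 8 of the 44 (35.4% of the 12180 genes) and below it for 33 (32.2%). At P4 it lay above for 16 (44.9%) and below for 11 (29.3%). Of the 39 genes among all 64 with an interval below at P1, 20 were beta protocadherins of the single cluster, and with the beta genes left out the median log2 difference at P1 was -0.15 in place of -0.52. Of all 64 genes, 6 went from below at P1 to above at P4 (2.37% of all genes), and 0 went the opposite way (1.08%). After quantile normalization Pcdh8, Pcdh19 and Fat3, which are among the 6, lay below 0 at P4.

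Most of the classical cadherin FPKM came from 3 genes. The summed FPKM of the 17 classical genes was 128 in pHes1_ENC and 299 in pHes1_EPC at P1, and 54.3 and 261 at P4, and Cdh2, Cdh11 and Cdh20 together made up 75.3%, 90.2%, 82.9% and 94.4% of it. Cdh2 alone held from 47.0% to 61.7% of the sum. The share of Cdh20 was lowest in P4 pHes1_ENC, at 5.09%, and lay between 12.3% and 18.2% in the other libraries.

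**Figure D3:**
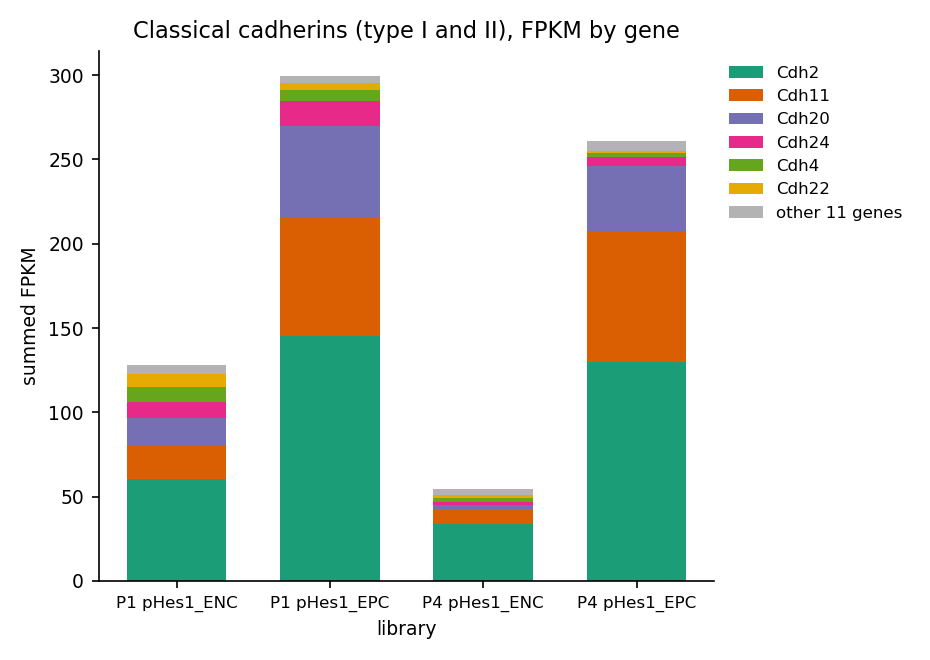
Summed FPKM of the 17 type I and type II cadherins in each library, stacked by gene, with the 11 genes of lowest FPKM in grey. Both EGFP-positive bars (299 and 261) stand above both EGFP-negative bars (128 and 54.3), and Cdh2, Cdh11 and Cdh20 fill most of each bar.

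Cdh2, or N-cadherin, is the main cadherin of neuroepithelial junctions. Its FPKM was 60.3 in pHes1_ENC and 146 in pHes1_EPC at P1, and 33.5 and 130.1 at P4. The EGFP-positive libraries were the 2 highest, 2.41-fold higher at P1 (range 2.27 to 2.54) and 3.88-fold higher at P4 (3.62 to 4.11). The wider gap at P4 came with a lower value in pHes1_ENC (0.556 of that at P1) beside 0.894 of it in pHes1_EPC. In the EGFP-positive libraries the FPKM of Cdh2 lay slightly above its own deposited interval, as did that of Cdh20 at P1 and Cdh11 at P4.

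Cdh11, a type II cadherin also known as OB-cadherin, spans chr8:105156895-105309011 on the minus strand in mm9. It stood at an FPKM of 20.5 in pHes1_ENC and 70.0 in pHes1_EPC at P1, and 8.69 and 77.5 at P4. It was 3.42-fold higher in pHes1_EPC at P1 (3.12 to 3.72) and 8.91-fold higher at P4 (7.74 to 9.78). Within pHes1_ENC it was called lower at P4, with a log2 difference of -1.15. Within pHes1_EPC the difference was 0.14, a value that was below 0 under each of the 3 other scalings.

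Cdh20, whose promoter is printed above, spans chr1:106665396-106892058 on the plus strand. The FPKM was 15.8 in pHes1_ENC and 54.6 in pHes1_EPC at P1, and 2.76 and 38.6 at P4. It had the largest fraction difference of the 64 genes at P4 on the log2 scale, 3.40, and was 14.0-fold higher there (11.2 to 16.5), against 3.46-fold at P1 (3.08 to 3.81). P4 pHes1_ENC was the lowest library, 5.70-fold below P1 pHes1_ENC (4.50 to 6.98).

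The other classical cadherins were lower in level. Cdh24 had an FPKM of 9.93 in pHes1_ENC and 14.9 in pHes1_EPC at P1, and 2.07 and 4.95 at P4, and its interval in pHes1_EPC lay above that in pHes1_ENC at both ages, with log2 differences of 0.54 and 0.96. Cdh4, named R-cadherin after the retina, stood at 8.33, 6.13, 2.30 and 2.80 in the same order, with overlapping intervals between the fractions at P4. Cdh22 stood at 8.0, 4.06, 1.60 and 0.797, and was 1.97-fold lower in pHes1_EPC at P1 (1.55 to 2.47) and 2.01-fold lower at P4 (1.32 to 3.15), which the log2(FPKM + 1) scale put at -0.83 and -0.53. Each of these 3 genes was lower at P4 than at P1 in both fractions, and Cdh22 and Cdh24 were called lower in both.

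Among classical cadherins that peaked below an FPKM of 5, Cdh8, a marker of a bipolar cell type, had an FPKM of 1.23, 1.64, 0.955 and 2.37 in P1 pHes1_ENC, P1 pHes1_EPC, P4 pHes1_ENC and P4 pHes1_EPC. Cdh10 had 0.443, 0.702, 0.135 and 1.72, with log2 differences of 0.24 at P1 and 1.26 at P4, so that it passed the threshold at P4. Cdh12 went the other way, with 0.857, 0.0635, 1.35 and 0.213 and log2 differences of -0.80 and -0.96. The genes thus split, Cdh8 and Cdh10 being highest in P4 pHes1_EPC and Cdh12 in P4 pHes1_ENC.

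Cdh3, or P-cadherin, is known from the retinal pigment epithelium. It had an FPKM of 0.144 in pHes1_ENC and 0.781 in pHes1_EPC at P1, and 0 and 1.09 at P4, and its log2 difference of 1.07 at P4 fell below 1 under the 3 other scalings. Of the 8 pigment epithelium markers found in the files, 4 were called higher in P4 pHes1_EPC (9.85% of all genes). The summed FPKM of the 8 was 18.4, 84.2, 20.7 and 465 in the 4 libraries, most of it from Rlbp1, which Müller glia also express. Ttr had an FPKM of 23.1 and Pmel 36.5 in P4 pHes1_EPC, against 0.308 and 0.737 in P4 pHes1_ENC, while Rpe65 stood at 0.422. The part of pigment epithelium in the Cdh3 value was not tested. Of 8 vessel markers 6, Cdh5 and Pecam1 among them, stayed below 1 in every library, while Kdr, which retinal progenitors also express, had an FPKM of 46.9, 209, 12.01 and 189. The remaining vessel marker, Cldn5, had 16.3, 3.49, 2.59 and 4.06 and was called lower in pHes1_EPC at P1.

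Outside the classical genes, Cdh13, or T-cadherin, which has a lipid anchor in place of a tail, was lower in pHes1_EPC at both ages. The gene spans chr8:120807655-121847348 on the plus strand. Its FPKM was 3.40 in pHes1_ENC and 0.730 in pHes1_EPC at P1, and 4.93 and 1.25 at P4. The EGFP-positive libraries were the 2 lowest, 4.65-fold lower at P1 (2.83 to 7.98) and 3.93-fold lower at P4 (2.56 to 6.05). No other gene of this group of 6 reached an FPKM of 1.

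Catenins and their relatives were listed as partners of the classical cadherins, and 8 of the 9 reached an FPKM of 1. Pkp4, a relative of delta-catenin, had an FPKM of 16.4 in pHes1_ENC and 43.3 in pHes1_EPC at P1, and 5.73 and 25.4 at P4, and was the only catenin called higher in pHes1_EPC at P1. Ctnnd2, or delta-catenin, joined it at P4, with 16.2, 14.9, 2.48 and 16.5. Ctnna2, the neuronal alpha-catenin, had 15.5, 4.22, 2.42 and 3.43 and was called lower at P1, as was Jup, or plakoglobin, with 8.5, 3.33, 5.12 and 6.43. In all, 1 of the 9 was called higher and 2 lower at P1 (6.1% and 6.79% of all genes), and 2 higher and 0 lower at P4 (9.85% and 5.42%). In pHes1_ENC 3 of the 9 were called lower at P4 than at P1 (5.94% of all genes), and 0 were in pHes1_EPC (2.57%), where 1 was with libraries rescaled to the same total.

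Among the large cadherins, Fat1, a homologue of the fly protein Fat that acts at junctions and on actin, was higher in pHes1_EPC at both ages. The gene spans chr8:46035562-46137611 on the plus strand. Its FPKM was 8.99 in pHes1_ENC and 30.6 in pHes1_EPC at P1, and 2.37 and 13.0 at P4. It was 3.40-fold higher at P1 (3.18 to 3.62) and 5.50-fold higher at P4 (4.95 to 6.13), and it was called lower at P4 than at P1 in both fractions.

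The 3 Celsr genes, homologues of the fly polarity protein Flamingo, were distributed in 3 different ways. Celsr1 had an FPKM of 0.486 in pHes1_ENC and 2.63 in pHes1_EPC at P1, and 0.0851 and 1.19 at P4, and was called higher in pHes1_EPC at both ages, although its log2 difference of 1.01 at P4 fell below 1 under the 3 other scalings. Celsr2 had 20.9, 23.3, 6.64 and 8.16, so that the fractions lay close together (log2 differences of 0.15 and 0.26), while both fractions were called lower at P4. Celsr3 (chr9:108728651-108755300, plus strand), a gene of postmitotic neurons with a known role in axon guidance, had 17.7, 0.803, 12.2 and 1.58. It was 22.1-fold lower in pHes1_EPC at P1 (18.7 to 26.3) and 7.70-fold lower at P4 (6.72 to 8.86). No other of the 64 genes had a log2 difference as far below 0 as Celsr3 at either age (-3.38 and -2.35).

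Fat3, which is known to shape the dendrites of amacrine cells, had an FPKM of 12.3 in pHes1_ENC and 7.03 in pHes1_EPC at P1, and 1.87 and 2.56 at P4. Fat4 and Dchs1 encode a receptor and ligand pair that bind each other across cells. Fat4 had 3.66, 0.966, 0.403 and 0.322, and was called lower in pHes1_EPC at P1 (3.78-fold, 3.25 to 4.43) with overlapping intervals at P4. Dchs1 had 14.9, 8.35, 6.67 and 5.69, and its log2 differences were -0.77 at P1 and -0.20 at P4. The highest library was P1 pHes1_ENC for all 3 genes.

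Of 10 listed partners in planar polarity, 2 were called higher in pHes1_EPC and 1 lower at P1 (6.1% and 6.79% of all genes), and 3 higher and 2 lower at P4 (9.85% and 5.42%). Under the 3 other scalings 2 were called higher at P4, and 3 were called lower with libraries rescaled to the same total. Fjx1, the homologue of a fly kinase that acts on Fat, had an FPKM of 9.99 in pHes1_ENC and 22.2 in pHes1_EPC at P1, and 2.44 and 16.2 at P4. Vangl1, a core polarity membrane protein, had 1.21, 5.80, 0.493 and 3.87. Like Fat1, both were highest in P1 pHes1_EPC and lowest in P4 pHes1_ENC. Prickle1, a cytoplasmic core polarity protein, had 1.63, 1.00, 6.39 and 2.60, with its highest value in P4 pHes1_ENC.

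Of the 11 protocadherins outside the clusters, 9 lay below 0 at P1 in pHes1_EPC against pHes1_ENC and 8 lay above 0 at P4 (7, 7 and 5 under the 3 other scalings). Of all genes, 40.6% lay below 0 at P1 and 45.1% above 0 at P4. Over genes with a mean FPKM of at least 1 these shares were 47.7% and 59.0%. Pcdh17, Pcdh19 and Pcdh15 were called lower at P1, as were 6.79% of all genes. At P4 Pcdh10 and Pcdh18 were called higher (9.85% of all genes) and Pcdh15 lower (5.42%), though Pcdh10 fell below the threshold in 2 of the 3 other scalings.

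Pcdh15 forms the tip links of hair cells with Cdh23 and is present at photoreceptors, and its loss causes Usher syndrome. The gene spans chr10:73284615-74112477 on the plus strand. It had an FPKM of 16.5 in pHes1_ENC and 5.29 in pHes1_EPC at P1, and 55.8 and 14.3 at P4. It was 3.12-fold lower in pHes1_EPC at P1 (2.82 to 3.51) and 3.89-fold lower at P4 (3.67 to 4.21). With age it was 3.38-fold higher in pHes1_ENC (3.20 to 3.62) and 2.71-fold higher in pHes1_EPC (2.42 to 3.06), the only gene of the 64 called higher with age in either fraction, although its log2 difference in pHes1_EPC, 1.29, was 0.98 with libraries rescaled to the same total. Cdh23, its partner in hair cells, did not pass an FPKM of 0.0221 in any library. Among 6 listed tip-link partners, 4 stayed below 1 in every library.

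Cdhr1, the photoreceptor cadherin, had the same order of libraries as Pcdh15, with an FPKM of 79.1 in pHes1_ENC and 5.90 in pHes1_EPC at P1, and 265 and 41.9 at P4. Of the 5 rod markers 4 were called lower in pHes1_EPC at P1 (6.79% of all genes) and all 5 at P4 (5.42%). All 5 were called higher with age in pHes1_ENC (2.77% of all genes) and in pHes1_EPC (4.17%). The summed FPKM of these markers was 338, 19.8, 2409.8 and 429.6, and that of Nrl, the rod determinant, was 164, 8.51, 875 and 184. The part of the rods in the values of Pcdh15 was not tested. Of 17 other cadherin superfamily genes that were listed, 12 stayed below 1 in every library. The calsyntenins Clstn1, with 128, 70.7, 241 and 80.7, and Clstn3, with 8.77, 3.41, 12.6 and 4.83, were called lower in P4 pHes1_EPC, as were Cdhr1 and 5.42% of all genes.

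The delta-type protocadherins, which act in sorting and axon contacts of neurons, were mostly highest in P1 pHes1_ENC. Pcdh17 (chr14:84843370-84936867, plus strand) had an FPKM of 7.63 in pHes1_ENC and 0.883 in pHes1_EPC at P1, and 0.622 and 0.479 at P4, so that 1 library stood apart from the other 3. Pcdh19, a gene of X-linked epilepsy, followed the same pattern with 5.36, 1.44, 0.768 and 1.03. Pcdh8 had 7.62, 3.55, 1.51 and 2.16, and Pcdh7 had 4.74, 2.08, 0.520 and 1.10. All 4 genes had an interval in pHes1_EPC below that in pHes1_ENC at P1, Pcdh17 by the widest margin, 8.64-fold (7.15 to 10.6). The same held for 21.8% of all genes and 32.2% of those with a mean FPKM of at least 1. Pcdh18 was highest in P1 pHes1_EPC, as was Pcdh11x, a gene of the same type whose symbol lies outside the rule, with 0.459, 1.74, 0.239 and 0.711.

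Pcdh10, known as OL-protocadherin, had close values in the pHes1_EPC libraries. It spans chr3:45182320-45238501 on the plus strand. It had an FPKM of 9.69 in pHes1_ENC and 8.51 in pHes1_EPC at P1, and 3.23 and 8.74 at P4. Only P4 pHes1_ENC was low, and the ratio of the fractions was 0.879 at P1 (0.781 to 0.986) and 2.70 at P4 (2.32 to 3.17). Pcdh18 had 2.84, 4.90, 0.356 and 3.61, which made it 10.1-fold higher in pHes1_EPC at P4 (7.03 to 15.9) against 1.73-fold at P1 (1.39 to 2.15). Pcdh9, with 2.95, 2.49, 0.553 and 1.98, was likewise lowest in P4 pHes1_ENC, and Pcdh1, with 4.16, 1.99, 1.62 and 1.81, was highest in P1 pHes1_ENC.

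The comparison of P1 with P4 uses the same 4 libraries as that of the fractions. In the EGFP-negative fraction 17 of the 64 genes were called lower at P4 (26.6%, against 5.94% of all genes) and 1 higher (against 2.77%). In the EGFP-positive fraction 5 were called lower (7.81%, against 2.57%) and 1 higher (1.56%, against 4.17%). Of all genes called with age, 31.8% were called higher in pHes1_ENC (24.9% to 42.8% under the other scalings) and 61.9% in pHes1_EPC (31.9% to 44.3%). Over genes with a mean FPKM of at least 1, the pHes1_ENC share was 17 of 44 (38.6%) against 9.93%. In pHes1_EPC over the same set, 1 of 44 was called higher (7.24% of all) and 5 lower (4.49%), and in pHes1_ENC the interval at P4 lay below that at P1 for 28 of 44 (30.7%). The 17 genes called lower in pHes1_ENC were 4 type II cadherins and Cdh4, 7 protocadherins outside the clusters, and Fat1, Fat3, Fat4, Dchs1 and Celsr2, and 17 or 18 genes were called lower under each other scaling. Cdh22, Cdh24, Celsr2, Fat1 and Fat3 were called lower in both fractions.

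Among the 48 genes that reached an FPKM of 1, leaving out Cdh3, which was listed at 0 in P4 pHes1_ENC, the lowest ratios of P4 to P1 in pHes1_ENC were those of Pcdh17 (12.3-fold lower, 9.95 to 15.4), Pcdh7 (9.11-fold, 6.95 to 12.4) and Fat4 (9.08-fold, 7.46 to 11.3). For the same genes in pHes1_EPC the ratio was 1.85-fold lower (1.34 to 2.56), 1.89-fold lower (1.45 to 2.48) and 3.0-fold lower (2.31 to 3.97). Thus each was lower by a smaller fold in pHes1_EPC, where it had also begun from a lower level at P1. Markers of other cells differed between the same pHes1_ENC libraries, where 5.94% of all genes were called lower at P4 and 2.77% higher. Of 8 ganglion cell markers 6 were called lower at P4 in pHes1_ENC, with a sum of 40.4 at P1 and 8.74 at P4. Among 7 amacrine and horizontal cell markers 3 were called lower and 1 higher, with sums of 107 and 83.1. Of the 11 Müller and progenitor markers 8 were called lower there, with sums of 866 and 208, while the rod markers were all called higher. The part of these cell types in the lower values of the 17 genes was not tested.

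**Figure D4:**
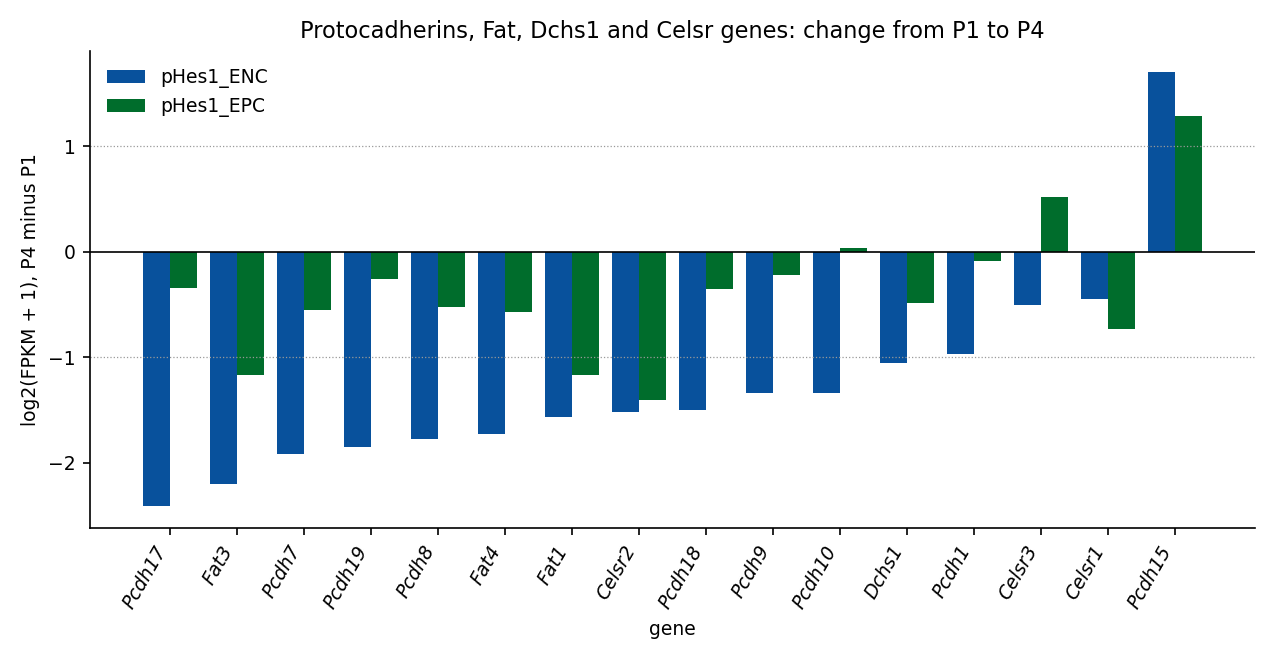
Difference in log2(FPKM + 1), P4 minus P1, in pHes1_ENC (blue) and pHes1_EPC (green) for the protocadherins outside the clusters and the Fat, Dchs1 and Celsr genes that reached an FPKM of 1, with dotted lines at 1 and -1. No error bars are drawn because each value compares 1 library with 1 library. Blue bars pass -1 for 12 genes and green bars for Fat1, Fat3 and Celsr2, and Pcdh15 is the only gene above 1.

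The beta protocadherins are short genes, 20 of the 21 with an annotated transcript having a single exon, and in neurons each cell is known to use a few of them. The 4 with the highest levels were Pcdhb17, Pcdhb20, Pcdhb22 and Pcdhb16. Pcdhb17 had an FPKM of 11.2 in pHes1_ENC and 5.52 in pHes1_EPC at P1, and 10.7 and 8.54 at P4. Pcdhb20 had 6.86, 3.14, 6.39 and 6.50, Pcdhb22 had 6.51, 4.05, 4.51 and 5.01, and Pcdhb16 had 5.59, 3.19, 4.15 and 3.25. P1 pHes1_EPC was the lowest library for all 4. The sum over the 22 genes was 74.3, 36.8, 63.6 and 55.1, and Pcdhb1 was near 0 throughout.

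At P1 all 22 lay below 0 in pHes1_EPC against pHes1_ENC, under each scaling as well, with a median log2 difference of -0.71. The ratios ran from 0.315 (Pcdhb9) to 0.723, none passed the threshold on the log2(FPKM + 1) scale (3 did with libraries rescaled to the same total), and 20 of the 22 had an interval in pHes1_EPC below that in pHes1_ENC, against 21.8% of all genes. At P4 15 lay below 0 and 7 above, with 20 below 0 under each other scaling, and the median was -0.19. An interval below was found for 6 and one above for Pcdhb5, with 18.6% of all genes below and 28.3% above. Over genes with a mean FPKM of at least 1 these P4 shares were 29.3% and 44.9%, and at P1 32.2% lay below. Within pHes1_EPC 19 of the 22 lay above 0 at P4 against P1 (17 or 18 under the other scalings). Of all genes 48.6% did, and 63.8% of those with a mean FPKM of at least 1. The interval at P4 lay above that at P1 for 12 of the 22, against 27.0% of all genes and 44.5% of those with that mean. Within pHes1_ENC 19 lay below 0, but 15 lay above 0 after quantile normalization.

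**Figure D5:**
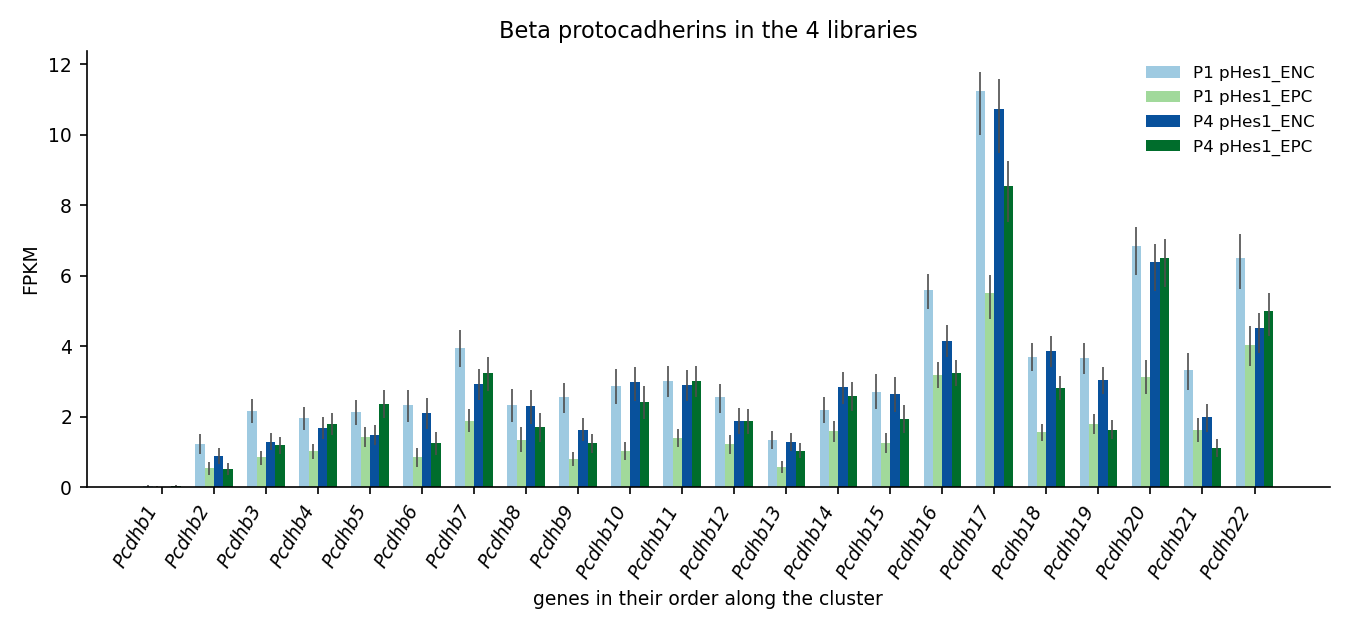
FPKM of the 22 beta protocadherins in the 4 libraries, in the order of the genes along their cluster, with the deposited 95% intervals. The light green bar (P1 pHes1_EPC) stands below the light blue bar (P1 pHes1_ENC) for each gene above Pcdhb1, and Pcdhb17 has the highest bar in every library.

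Reads were 36 bases long and could align to up to 50 places, so that near-identical genes share reads. Of the 36-base words of a beta protocadherin transcript, a median of 8.26% and at most 20.3% (Pcdhb8) also occurred in another gene. For the other genes of the family the median was 0, with the highest shares in Cdh24 (9.28%) and Cdh11 (4.81%). The split of reads among single beta protocadherins is therefore uncertain.

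The alpha and gamma protocadherins, which were not chosen by the rule and whose variable exons are joined to shared constant exons, were listed beside the beta genes. All 15 alpha genes and all 22 gamma genes lay below 0 at P1 (21 of the gamma genes after quantile normalization), and 13 and 17 lay below 0 at P4. Of all genes, 40.6% lay below 0 at P1 and 34.9% at P4. Reads from shared exons can be divided among these genes, so their signs are not separate observations. Of the 15 alpha genes 14 stayed below an FPKM of 1 in every library. The summed FPKM was 10.3, 1.43, 5.03 and 1.67 for alpha and 88.7, 40.8, 64.5 and 52.9 for gamma in P1 pHes1_ENC, P1 pHes1_EPC, P4 pHes1_ENC and P4 pHes1_EPC. Pcdhgc3 held the largest FPKM of the gamma genes, with 34.0, 13.1, 18.8 and 15.2, and was the only one called lower at P1. Of 7 listed regulators of these clusters, such as the insulator protein Ctcf and the cohesin subunit Rad21, 0 were called higher or lower between the fractions at either age. Of all genes, 6.1% were called higher and 6.79% lower at P1, and 9.85% and 5.42% at P4. With shares that low, 0 of 7 says little.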

How the data were processed

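RNA-seq libraries of sorted P1 and P4 mouse retinal cells were analysed, 1 per group, with groups taken from the sample titles. According to the study's methods and submitters' processing notes, the authors made 36-base single reads from unstranded cDNA (bcl2fastq 1.8.4), aligned them to mm9 with TopHat2 2.0.8b, allowing up to 50 positions per read, and computed the deposited FPKM and its 95% interval per gene with Cufflinks 2.1.1. The files hold no counts, so read depth is unknown.

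Gene lines were joined by symbol and position, 783 lines of small RNAs were left out, and of repeated symbols the line with the highest summed FPKM was kept. Differences were taken on the log2(FPKM + 1) scale (pseudocount 1) and called past 1 or -1; with 1 library per group no test was made. The members and lists were chosen with earlier results of these data known. A gene of the family could be named from an FPKM of 1 in any library and was given in all 4 libraries from 5, and partners with at least 5 and a called fraction difference were named; Cdh23, the regulators and the cell type markers were named as checks. Alternatives were other pseudocounts, filters, scalings and treatments of repeated symbols. Promoter windows came from RefSeq (GRCm38.p6), and shared 36-base words from the mm9 annotation. The counting of calls was tested on simulated data. Python 3.11.15, numpy 2.4.6, pandas 2.3.3 and matplotlib 3.10.9 were used.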

Additional observations from a re-analysis of the deposited data

Results flagged for a closer look

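For 6 genes the deposited intervals of the fractions did not overlap at either age and lay in opposite order, pHes1_EPC below pHes1_ENC at P1 and above it at P4. The log2(FPKM + 1) difference went from -0.90 to 0.47 in Pcdh7, a shift of 1.37, from -0.92 to 0.33 in Pcdh8, a shift of 1.25, and from -0.17 to 1.20 in Pcdh10, a shift of 1.37. It went from -1.39 to 0.20 in Pcdh19, a shift of 1.58, from -0.36 to 0.44 in Pcdhb5, a shift of 0.80, and from -0.73 to 0.31 in Fat3, a shift of 1.03. The shift itself was not tested, since each group is 1 library. The same order was found in 518 of all genes (2.37%), and the opposite order in 236 (1.08%). After quantile normalization the P4 difference was below 0 in Pcdh8, Pcdh19 and Fat3.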

How the results depend on the processing

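No paired analysis was possible because each group has 1 library. Among values not past the threshold, directions turned with the scaling: after quantile normalization the beta protocadherins with age in pHes1_ENC went from 19 below 0 to 15 above, and the protocadherins outside the clusters at P4 from 8 above and 3 below to 5 above and 6 below. The share of age calls that were higher in pHes1_EPC went from 61.9% to between 31.9% and 44.3% under the other scalings. With a pseudocount of 0.1, P1 had 8 genes higher in pHes1_EPC (12.5%, against 9.42% of all genes) and 25 lower (39.1%, against 11.3%). P4 had 14 higher (21.9%, against 14.7%). With age pHes1_EPC had 5 higher (7.81%, against 7.85%) and 9 lower (14.1%, against 5.32%). Ratios with no pseudocount were taken for genes above 0 in both libraries. P1 then had 9 higher of 59 (15.3%, against 15.5% of all such genes) and 29 lower (49.2%, against 18.3%), with a median of -0.98. P4 had 15 higher of 57 (26.3%, against 22.6%) and 10 lower (17.5%, against 15.5%). In pHes1_ENC with age 2 of 59 were higher (3.39%, against 8.67%) and 27 lower (45.8%, against 19.4%), with a median of -0.74. In pHes1_EPC with age 9 of 58 were higher (15.5%, against 14.6%) and 10 lower (17.2%, against 9.94%), with a median of 0.23. With libraries rescaled to the same total, P1 had 10 lower (15.6%, against 7.47% of all genes) and pHes1_EPC with age 0 higher (against 2.13%). With the beta protocadherins left out, an alternative chosen after seeing the data, the P1 median was -0.15. Of the 35 called values of the 20 genes given in full, all had the same sign throughout, and 33 stayed past the threshold after rescaling to the same total or quantile normalization. Low FPKM and single libraries limit the rest.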
